A study of Mus musculus with 8 samples.

Results

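Smooth muscle cells of the arterial wall contract with a shared set of proteins, and the 33 genes that encode this set in the aorta were compared between ApoE-/- mice and wild-type (WT) mice. The genes were a named list: actins and the proteins that bind them, smooth muscle myosin with its kinase and phosphatase, proteins of dense bodies and adhesions, the calcium pump regulator phospholamban, 2 transcription factors and 2 mural cell genes. All 33 were among the 21859 genes in the files, and all 33 passed the low-count filter that left 15077 genes for testing. Whole aortas came from 4 ApoE-/- and 4 WT mice and gave 1 RNA library per mouse. All the mice were male, on the C57BL/6 background, 40 weeks old, fed a normal diet, and fasted before the aorta was taken. ApoE-/- mice lack apolipoprotein E, which clears lipoproteins from plasma, in every cell from birth, and all comparisons are at 1 age. The tissue was not dissociated.

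In contractile smooth muscle, calcium activates myosin light chain kinase, phosphorylated myosin pulls on actin filaments, and these are anchored at dense bodies and membrane plaques. Many of these genes are switched on together by serum response factor (SRF) and its partner myocardin, which bind DNA motifs called CArG boxes. In atherosclerosis, smooth muscle cells are known to lose contractile proteins and to take up matrix and inflammatory genes, a change called phenotypic modulation.

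No contractile gene passed edgeR's test between genotypes, and 1 of the 33 came close to it. Phospholamban (Pln) was lower in each ApoE-/- mouse than in each WT mouse. The other 32 genes lay between -0.41 (Ppp1r14a) and 0.34 (Cspg4) in log2 fold change, with edgeR adjusted p of 0.569 or more. The feature that organised the data was variation between mice of 1 genotype. The genes rose and fell together from aorta to aorta, with the lowest values of nearly all of them in 1 ApoE-/- mouse, replicate 1.

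Values are the read pairs on a gene per 1000000 pairs on genes (CPM), scaled between libraries by edgeR's TMM method. Between 18375898 and 23940156 read pairs were counted on genes in a library. They were 32.3% to 35.6% of all pairs in ApoE-/- mice and 27.9% to 30.2% in WT mice, without overlap. Apoe itself was 14.7 to 36.3 CPM in ApoE-/- mice and 536 to 857 CPM in WT mice (log2 fold change -4.83, edgeR adjusted p = 0.0141). One library stood apart: in ApoE-/- replicate 1, 10 genes of sympathetic neurons, a list chosen after the values were seen, summed to 8110 CPM, against 39.0 to 595 CPM in the other ApoE-/- mice and 361 to 1422 CPM in WT mice. The main results that rest on this mouse are given with and without it.

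CArG boxes, by the strict motif, which reads the same on both strands, are shown first because SRF is a member and its motif is what these genes are best known to share. The 250 bases before the RefSeq start sites of 28 members were searched, and 6 members held a box, 21.4% of them. Of the 27025 genes in the RefSeq table for GRCm38.p6, 1.62% held one in any window, and of 31 other smooth muscle genes with a window, 6.45% did. Actg2, Tagln, Myh11, Nexn and Myocd had no window in this table. In the lines that follow, capitals mark the box within 30 bases, read 5′ to 3′ on the strand of the gene.
Cnn2 (calponin 2, chr10:79988534-79988563, plus strand): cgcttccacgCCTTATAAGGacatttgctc
Myl9 (regulatory light chain, chr2:156775293-156775322, plus strand): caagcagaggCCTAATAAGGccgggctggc
Vcl (vinculin, chr14:20929161-20929190, plus strand): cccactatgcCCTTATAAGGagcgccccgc
Ldb3 (a Z-disc protein, chr14:34588697-34588726, minus strand): gggttacagtCCATTTATGGgcgcagcaag
Srf, farther box (chr17:46556225-46556254, minus strand): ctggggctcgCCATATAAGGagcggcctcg
Srf, nearer box (chr17:46556205-46556234, minus strand): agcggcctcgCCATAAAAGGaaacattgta
The boxes of Cnn2 and Vcl were the same 10 letters, and both boxes of Srf lay within 82 bases of its start. None of the 6 stretches overlapped an annotated exon. The sixth gene was Myl6, whose box overlapped an exon of another Myl6 transcript and is not printed. The 6 genes with a box had a median log2 fold change of 0.01 and the 22 without one a median of -0.10. A match describes letters in a window and does not show binding, and a window without a match says nothing of SRF at that gene.

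Actin and myosin genes of smooth muscle were abundant in the samples. Per kilobase of annotated exon, the highest of the 33 genes in WT mice was Acta2, smooth muscle alpha-actin, with a mean of 2212 CPM per kb, followed by Tagln and Myl9 with 1316 each, Flna with 1109 and Myh11, smooth muscle myosin heavy chain, with 797. The lowest was Pln with 14.8. Together the 33 genes took 1.47%, 5.32%, 5.10% and 3.10% of gene counts in ApoE-/- replicates 1 to 4, and 4.04%, 4.29%, 5.23% and 2.92% in WT replicates 1 to 4. The ApoE-/- aortas thus held both the lowest share and the highest.

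Among the 10 thin filament genes, 8 were below 0 and 2 above 0 in log2 fold change, and none passed the test. In the fit without ApoE-/- replicate 1, 3 were below 0 and 7 above 0. Acta2 was measured at 1416, 6119.7, 5390.3 and 4323 CPM in ApoE-/- mice and at 5208, 4656, 6334 and 3229 CPM in WT mice. The WT values lay inside the ApoE-/- range but for replicate 3, which was the highest of the 8. The log2 fold change of Acta2 was -0.17 ± 0.45 (SE, n = 4 per genotype), with a 95% interval of -1.20 to 0.85 and an edgeR adjusted p of 0.938. In linear terms this interval runs from 0.437-fold to 1.81-fold.

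Tagln (transgelin), an actin-bundling protein used as an early muscle marker, was at 809, 3013, 2621 and 2281 CPM in ApoE-/- mice and at 2476, 2855, 3246 and 1892 CPM in WT mice. Cnn1 (calponin 1), which slows the myosin ATPase, was at 149, 536, 516 and 417 CPM against 449.8, 459, 552 and 358 CPM. In each, 1 ApoE-/- aorta was far below the rest and the other 3 fell among the WT values. The tropomyosins Tpm1 and Tpm2, which lie along the actin filament, had log2 fold changes of -0.24 and -0.31, and gamma-actin Actg2 of -0.30. Caldesmon (Cald1), which holds myosin off actin, was at -0.06, and leiomodin (Lmod1), which nucleates filaments, at -0.03. Smoothelin (Smtn), found in contractile cells, was at 0.03 and Cnn2 at 0.17. Over these 10 genes the adjusted p ran from 0.789 to 0.988.

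All 7 genes of myosin and its enzymes were below 0, and none passed the test (adjusted p 0.758 or more). Of the 7, 4 were above 0 without ApoE-/- replicate 1. Myh11 was at 1884, 8126, 8224 and 4155 CPM in ApoE-/- mice and at 5865, 6142, 8032 and 4200.2 CPM in WT mice. ApoE-/- replicate 1 was below every WT aorta and replicates 2 and 3 were above every one of them. The log2 fold change was -0.11 ± 0.47 (SE), with an interval of -1.20 to 0.97 and an edgeR adjusted p of 0.963.

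The essential and regulatory light chains Myl6 and Myl9 were at -0.24 and -0.27. Of the 50-base stretches of Myl6, 8.38% also occur in other genes, most of them in the pseudogene Gm5526, so part of its counts is uncertain. Myosin light chain kinase (Mylk), which starts contraction, was at -0.11. The phosphatase subunits Ppp1r12a and Ppp1r12b, which direct the enzyme to myosin, were at -0.16 and -0.00. Ppp1r14a (CPI-17), which inhibits that phosphatase, had the lowest log2 fold change of the 32 genes other than Pln, with 24.9, 73.1, 65.4 and 40.9 CPM in ApoE-/- mice and 66.0, 65.9, 86.6 and 53.0 CPM in WT mice. Its groups overlapped, and its log2 fold change of -0.41 ± 0.33 (SE) had an edgeR adjusted p of 0.758. It was -0.18 without ApoE-/- replicate 1, and Des, at -0.23, was then lower.

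Of the 10 genes of dense bodies, adhesions and intermediate filaments, 5 were above 0 and 5 below 0, and none passed the test. Leaving out ApoE-/- replicate 1 put 9 above 0. Filamin A (Flna), which crosslinks actin, had the highest CPM of all 33 genes, at 3696, 14965, 14666 and 7602 in ApoE-/- mice and at 10382, 10154, 14053 and 7108 in WT mice. For Flna the log2 fold change was -0.03 ± 0.47 (SE), with an edgeR adjusted p of 0.994. Desmin (Des), the muscle intermediate filament, was at 94.6, 149, 186 and 162 CPM against 187, 181, 235 and 176 CPM. Here 3 of the 4 ApoE-/- aortas were below the lowest WT aorta and replicate 3 was not, with a log2 fold change of -0.40 ± 0.21 (SE) and an edgeR adjusted p of 0.569. The remaining 8 ran from -0.18 to 0.18: Csrp1, a LIM protein of actin bundles, at -0.18, Pdlim3 at -0.09, Nexn at -0.05, Ldb3 at 0.00, Actn1 (alpha-actinin 1) at 0.07, Synpo2 at 0.12, Pdlim7 at 0.13 and Vcl, which links integrins to actin, at 0.18. Exons of Vcl share 25.5% of their bases with Ap3m1 on the opposite strand, and 62.4% of Tagln's with the antisense gene Gm48529, which the strand-specific libraries can separate only if strand was used in counting, as the submitters' naming of the counts has it.

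Myocd (myocardin), the coactivator that defines this programme, varied most. It was at 30.5, 224, 232 and 99.1 CPM in ApoE-/- mice, a 7.60-fold range, and at 126, 114, 239 and 106 CPM in WT mice, a 2.24-fold range. The genotype means were 146.3 CPM each, and the log2 fold change was -0.00 ± 0.58 (SE) with an interval of -1.34 to 1.34. Srf was steady by comparison, at 40.1, 52.9, 60.3 and 48.5 CPM against 57.2, 47.1, 50.5 and 43.2 CPM. Its interval, -0.31 to 0.36, was the narrowest of the 33 genes.

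Rgs5, a brake on G protein signalling in mural cells, was at 894, 3682, 2699 and 2847 CPM in ApoE-/- mice and at 2805, 3055, 3226 and 2384 CPM in WT mice (log2 fold change -0.18). Cspg4 (NG2), a proteoglycan of mural cells, had the highest log2 fold change of the list, 0.34 ± 0.39 (SE), with 256, 802, 859 and 390.0 CPM against 519, 403, 561 and 346 CPM. Its edgeR adjusted p was 0.830. Mustn1, a small gene of muscle repair, was at 0.02.

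**Figure D1:**
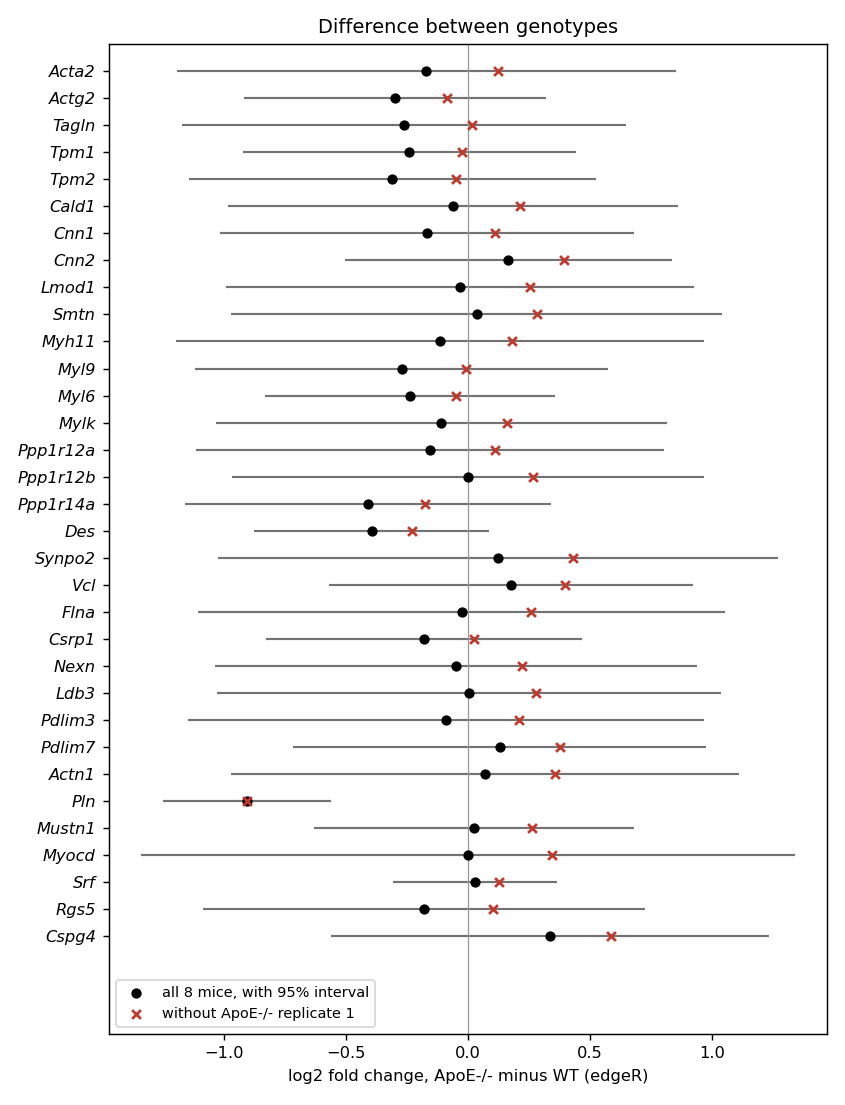
Log2 fold change (ApoE-/- minus WT, horizontal axis) of the 33 genes. Black dots with lines give the edgeR estimate and 95% interval over 8 mice, and red crosses the estimate without ApoE-/- replicate 1. The interval of Pln alone lies clear of 0, and 25 of the 33 crosses lie above 0.

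By edgeR's quasi-likelihood test with Benjamini-Hochberg adjustment over 15077 genes, 0 of the 33 genes were called, where 70 of all genes (0.464%) were. At an unadjusted p under 0.05, 1 member passed, Pln, against 11.4% of all genes. DESeq2 called 1 member, again Pln, against 4.81% of all genes, and limma-voom called 0. Between genotypes, 1 member, Pln, did not overlap, against 8.71% of all genes. The median log2 fold change was -0.09 over the 33 genes (-0.26 by limma-voom) and 0.05 over all genes tested. Below 0 were 23 of the 33, against 42.0% of all genes. The data leave room for moderate differences, since the 95% interval stayed within a 2-fold change either way for 13 of the 33 genes, reached a 2-fold lower level for 17 and a 2-fold higher level for 7. In whole tissue, fewer smooth muscle cells and less RNA per cell cannot be told apart.

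The order of the mice was nearly the same from gene to gene. ApoE-/- replicate 1 was the lowest of the 8 for 32 of the 33 genes, with Pln the exception. ApoE-/- replicates 2 and 3 were the highest pair of their genotype for 29 genes. In WT mice, replicate 3 was the highest for 31 genes and replicate 4 the lowest for 32. The SD of log2 CPM was larger in ApoE-/- than in WT mice for 32 of 33 genes, with medians of 0.87 and 0.33. For 17 genes the ApoE-/- range enclosed the whole WT range. The highest value was under 2 times the lowest for 30 genes in WT mice and for 3 genes (Des, Pln and Srf) in ApoE-/- mice. Much of this spread was replicate 1. Over the other 3 ApoE-/- mice the median SD was 0.44, the SD was larger than in WT mice for 22 genes, the range enclosed the WT range for 8 genes, and the highest value was under 2 times the lowest for 23 genes. Their range of Myocd was 2.34-fold, against 2.24-fold in WT mice.

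Other tissue moved across the same aortas. White adipocyte genes (10 of 10 tested) summed to 8864, 5156, 3556 and 14559 CPM in ApoE-/- mice and to 11684, 8081, 8145 and 13940 CPM in WT mice. In ApoE-/- mice the pair with the most muscle RNA had the least adipocyte RNA, and in WT mice the aorta with the least muscle RNA had the most. The order was not kept throughout. ApoE-/- replicate 1, with the least muscle RNA, did not have the most adipocyte RNA. WT replicate 3, with the most muscle RNA of its genotype, did not have the least. The brown adipocyte list (8 genes) ran from 522 to 2175 CPM and from 1191 to 4152 CPM. The low muscle values of ApoE-/- replicate 1 stood beside its sympathetic neuron sum of 8110 CPM, which included Slc6a2, the noradrenaline transporter, at 2059 CPM and Dbh, which makes noradrenaline, at 1431 CPM. The part of neighbouring tissue in these levels was not tested.

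**Figure D2:**
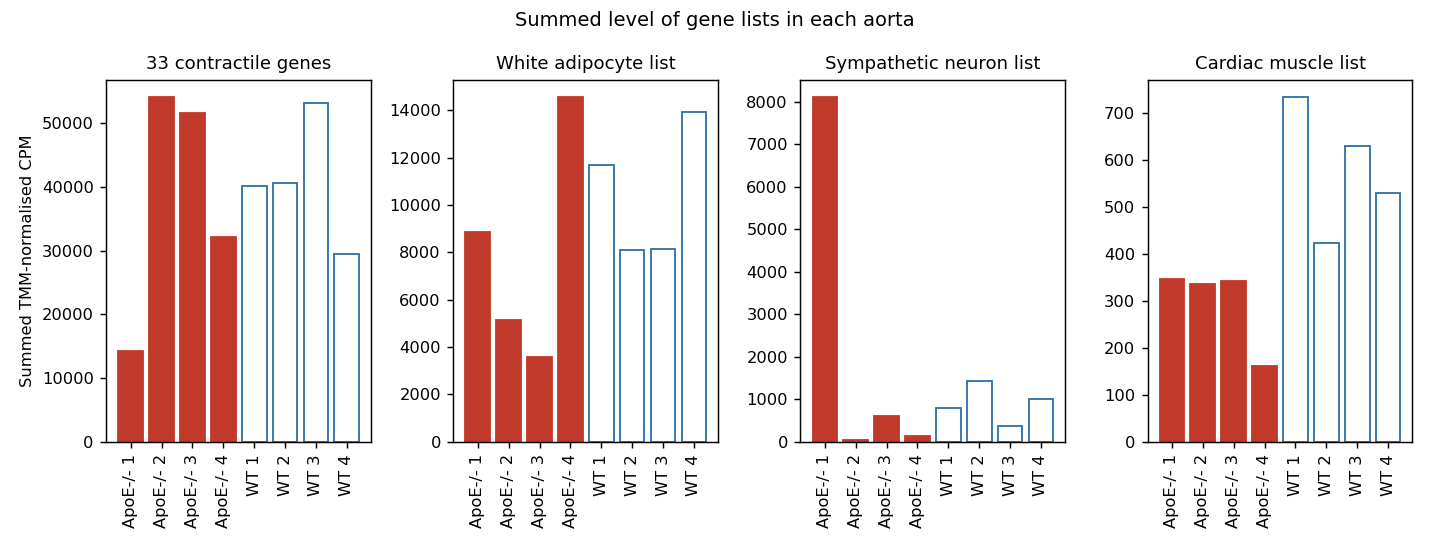
Summed TMM-normalised CPM (vertical axes, from 0, each on its own scale) of 4 gene lists in each of the 8 aortas, with ApoE-/- mice filled and WT mice open. ApoE-/- replicate 1 has the lowest contractile sum, 14290, and the highest sympathetic neuron sum, 8110, and the cardiac list is higher in each WT than in each ApoE-/- aorta.

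Without ApoE-/- replicate 1, the signs turned. In that fit, 25 of the 33 genes were above 0, with a median log2 fold change of 0.18 against 0.00 over all genes. Myh11 moved from -0.11 to 0.18, Acta2 from -0.17 to 0.12, Flna from -0.03 to 0.26 and Myocd from -0.00 to 0.34. Only Pln was called, 1 of 33, against 3.91% of all genes in that fit, and the next smallest adjusted p was 0.264. Cnn2 and Mustn1 also had unadjusted p under 0.05 there (0.0490 and 0.0485). Which way most of the 33 genes leaned therefore rested on 1 mouse.

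To look at the composition of the programme apart from its amount, the libraries were rescaled so that the 33 genes had a common level in each. The muscle level set this way, relative to TMM, was 0.416, 1.45, 1.39 and 0.858 in ApoE-/- mice and 1.06, 1.07, 1.45 and 0.841 in WT mice. The median SD of log2 values within genotypes fell from 0.65 to 0.18 over the 33 genes, while over all genes it rose from 0.29 to 0.69. Because the 33 genes set the scale, some narrowing was built in. Without ApoE-/- replicate 1 the median fell from 0.36 to 0.16. With all mice it narrowed for 30 genes, and Pln, Srf and Des spread more on this scale than on the other. Mylk followed the common level most closely, with an SD of 0.04, against 0.62 for Pln, 0.48 for Srf and 0.42 for Myocd. The small SD of Mylk was in part set by the scaling. On this scale Mylk stood at the same 1221.9 CPM in WT replicates 1 to 3, being itself the median gene there.

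**Figure D3:**
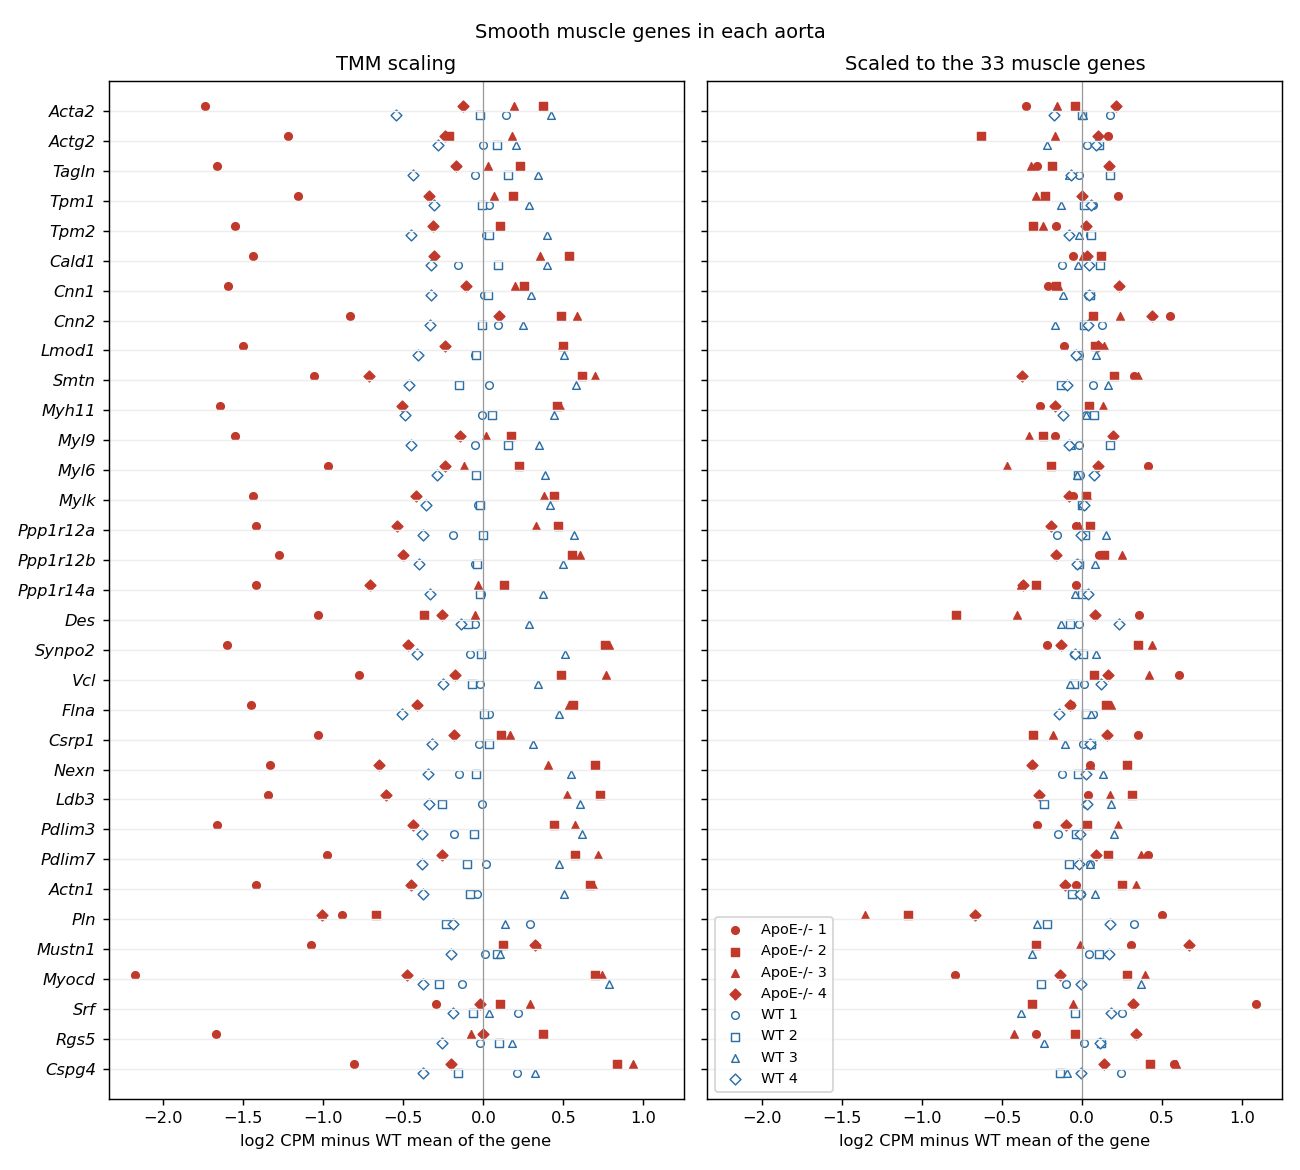
Level of each of the 33 genes in each aorta, as log2 CPM minus the WT mean of that gene (horizontal axes, the same in both panels), with TMM scaling on the left and scaling to the 33 genes on the right. On the left, ApoE-/- replicate 1 is the lowest point for 32 genes, and on the right the median SD within genotypes is 0.18 in place of 0.65.

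On the muscle scale the median of the 33 genes is held near 0 by construction, so only differences among them can be read. The edgeR SE of 0.33 to 0.49 for single genes draws on the variance of all genes, whose median SD was 0.69 on this scale. It does not measure the spread of the members alone. For Mylk it was 0.34 beside an SD of 0.04, so the test is a weak one for the members here. Of the 33 genes, 26 were within 0.2 of 0 in log2 fold change and 0 passed the test (edgeR adjusted p), against 0.305% of all genes. All genes had a median of 0.45 on this scale in place of 0.05, and the 46 genes called were 45 higher and 1 lower, where TMM scaling gave 56 higher and 14 lower, with 28 genes shared. Pdlim7, a LIM protein that ties actin to signalling kinases, did not overlap between genotypes, 1 of 33 against 3.26% of all genes, a share near the background. Its relative log2 fold change was 0.26, with an edgeR adjusted p of 0.756 on this scale. The exact permutation test (two-sided) gave p = 0.0286, the least that 4 mice against 4 can give. Any gene without overlap has this p, so it adds nothing to the lack of overlap. Cspg4 at 0.43, Cnn2 at 0.33, Vcl at 0.33 and Ppp1r14a at -0.26 had the next smallest exact permutation p, 0.0571, unadjusted over the 33 genes. The edgeR adjusted p of these genes on this scale was 0.755 to 0.757. Without ApoE-/- replicate 1, 0 of the 33 genes passed the test on this scale (edgeR adjusted p) and 25 of them were within 0.2 of 0. Then 3 of the 33 did not overlap, Pdlim7, Ppp1r14a and Pln, against 6.74% of all genes.

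Pln encodes phospholamban, which restrains the sarcoplasmic reticulum calcium pump in smooth and heart muscle. The gene lies on chromosome 10 from 53337667 to 53345987, plus strand, in GRCm38. It was at 21.8, 25.3, 20.0 and 20.1 CPM in ApoE-/- mice and at 49.4, 34.3, 44.4 and 35.3 CPM in WT mice. The genotypes did not overlap, and the mouse that was lowest for the other 32 genes lay inside the ApoE-/- range for Pln. The mean was 21.8 ± 2.50 (SD, n = 4) against 40.9 ± 7.31 (SD, n = 4). The log2 fold change was -0.91 ± 0.15 (SE), with an interval of -1.25 to -0.56, or 0.420-fold to 0.678-fold.

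The edgeR adjusted p of Pln was 0.0526, just past the threshold of 0.05, and DESeq2 gave 1.36e-05. Without ApoE-/- replicate 1 the edgeR adjusted p was 0.0288 at the same log2 fold change of -0.91. Relative to the muscle genes the log2 fold change was -0.49, the genotypes overlapped and the adjusted p was 0.755. Without ApoE-/- replicate 1 it was -1.02 on that scale, with no overlap and an edgeR adjusted p of 0.169. Pln shares 59.6% of its exon bases with Gm47644 on the opposite strand.

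Heart muscle genes were set beside Pln. None of the 10 cardiac genes tested was above 0, edgeR called 0 of them, DESeq2 called 6 lower, and 9 did not overlap between genotypes. The 6 were the contractile proteins Myl4 (log2 fold change -2.46), Tnnt2 (-2.07), Tnni3 (-2.77), Mybpc3 (-2.91) and Actc1 (-1.73) and the natriuretic peptide Nppa (-3.49). All 10 tested cardiac genes summed to 161 to 346 CPM in ApoE-/- mice and 421 to 733 CPM in WT mice. Of this, Ryr2, a calcium release channel that did overlap (log2 fold change -0.02), was 123 to 311 and 192 to 335 CPM. Without Ryr2 the sums were 24.6 to 133 CPM and 229 to 525 CPM. Myh6, the atrial and adult ventricular myosin of the mouse, was at 51.3, 1.62, 1.18 and 2.52 CPM in ApoE-/- mice and at 158, 88.6, 105 and 114 CPM in WT mice, and was called by neither tool. Within ApoE-/- mice Myh6 and Casq2 were highest in replicate 1 and Pln in replicate 2. Of the defining markers, Myl7 was at 0 in ApoE-/- replicates 2 and 3. Casq2, the calsequestrin of heart and smooth muscle, was at 10.6, 5.47, 7.84 and 6.29 CPM against 25.4, 17.0, 17.1 and 16.9 CPM, with a log2 fold change of -1.34 ± 0.24 (SE), an edgeR adjusted p of 0.0591 and a DESeq2 adjusted p of 2.5e-05. The part of heart muscle RNA in the Pln and Casq2 values was not tested.

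**Figure D4:**
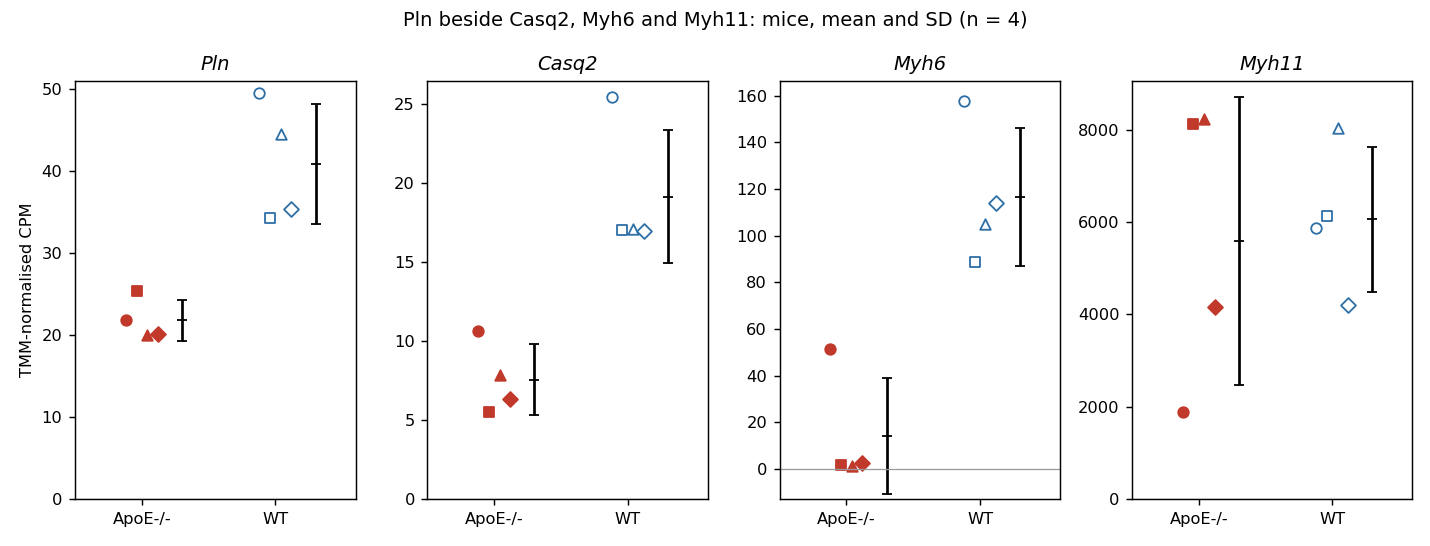
TMM-normalised CPM (vertical axes) of Pln, Casq2, Myh6 and Myh11 in each mouse, with the mean and SD (n = 4) beside the points and the symbols numbered as in the plot of all 33 genes. Pln, Casq2 and Myh6 do not overlap between genotypes, whereas Myh11 spans 1884 to 8224 in ApoE-/- mice and 4200.2 to 8032 in WT mice.

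Log2 fold change was set against gene length as a description, with no test. Across the 33 genes, longer annotated exons went with higher log2 fold change (Spearman's rho 0.49, n = 33 genes measured in the same 8 libraries), whereas rho was -0.02 over 15065 genes and 0.28 over 38 other smooth muscle genes. The 11 shortest genes, of 1162 to 2893 bases, had a median of -0.18 (range -0.91 to 0.17), and the 11 longest, of 6424 to 14983 bases, a median of -0.03 (range -0.24 to 0.34), with 8 of 11 below 0 in both. Without ApoE-/- replicate 1 these medians were 0.02 and 0.26. The shortest included Acta2, Tagln, Myl9 and Csrp1, and the longest Cald1, Tpm1, Vcl and Synpo2, so both sets held genes of the thin filament and of adhesions.

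Libraries of 1 genotype differed in this. On the muscle scale, the longest genes minus the shortest gave -0.22, 0.41, 0.35 and -0.27 in log2 units in ApoE-/- mice and -0.04, -0.04, 0.15 and -0.05 in WT mice. On this measure ApoE-/- replicates 2 and 3 stood at one end and 1 and 4 at the other. By rank over the 33 genes, level against length gave rho of -0.15, 0.69, 0.61 and -0.52 in ApoE-/- mice and -0.52, -0.46, 0.20 and -0.40 in WT mice, so replicate 1 was not at the end by this measure. Over all genes rho was -0.07, 0.14, 0.21 and -0.30 in ApoE-/- mice and -0.08, 0.06, 0.15 and -0.04 in WT mice, which ordered the libraries in part differently.

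**Figure D5:**
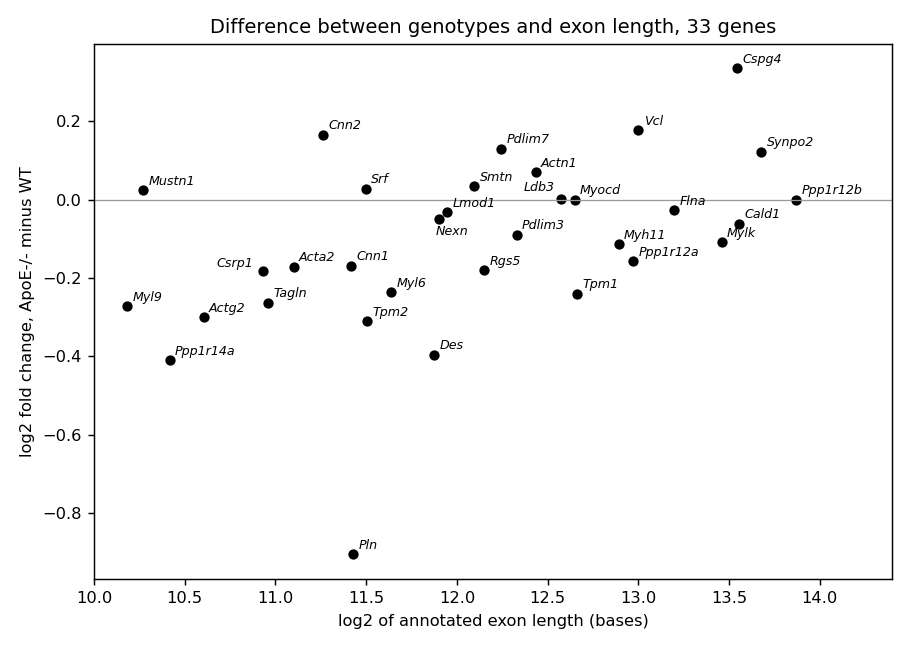
Log2 fold change between genotypes (vertical axis) against the log2 of annotated exon length in bases (horizontal axis) for the 33 genes, 1 point each. The 11 shortest have a median of -0.18 and the 11 longest of -0.03, with overlapping ranges, and Pln lies apart at -0.91.

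The rest of the pathway gave little more. Of 38 other smooth muscle genes, edgeR called 0 and DESeq2 1, Casq2 lower, with a median log2 fold change of 0.02, which was 0.17 without ApoE-/- replicate 1. Their sum ran from 6376 to 18681 CPM in ApoE-/- mice and from 10965 to 16882 CPM in WT mice, with replicate 1 lowest and replicate 2 highest in ApoE-/- mice, as for the 33 genes.

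Regulators of SRF and myocardin gave 0 calls by edgeR and 0 by DESeq2 among 19 tested of 24 listed. Mrtfa and Mrtfb, which carry actin signals to SRF, were at 0.36 and -0.05. Klf4, a repressor of muscle genes, was at 40.7, 84.8, 105 and 92.1 CPM against 89.3, 97.0, 104 and 125 CPM (log2 fold change -0.36, edgeR adjusted p = 0.738). Klf5 was at -0.53 ± 0.21 (SE; edgeR unadjusted p = 0.0361, adjusted p = 0.377), Fhl2, an SRF cofactor, at -0.39, and Tead1 at -0.31.

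Signalling to contraction gave 0 calls by either tool among 28 tested of 32 listed. The alpha-1 adrenergic receptor Adra1b, expressed at 1.10 to 1.43 CPM in ApoE-/- mice and 1.82 to 2.16 CPM in WT mice, did not overlap, with a log2 fold change of -0.57 and an edgeR adjusted p of 0.248. Adra1a was at -0.52, Adra1d at -0.44 and the phosphatase catalytic subunit Ppp1cc at -0.21. Of the 10 pericyte genes, Rgs5 and Cspg4 included, 0 were called by either tool, with a median of -0.20 (0.01 without ApoE-/- replicate 1), and Higd1b (-0.59), Ndufa4l2 (-0.38), Notch3 (-0.22) and Pdgfrb (0.31) had the smallest p.

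Genes of modulated smooth muscle were listed with earlier results of these data known, so their direction is no independent evidence, and the list was not tested against the contractile one. Of 23 tested, 22 were above 0, the median was 1.01, edgeR called 1 and DESeq2 called 9, all higher, and 9 did not overlap between genotypes. Timp1, an inhibitor of matrix metalloproteinases, was at 37.7, 55.2, 108 and 90.4 CPM in ApoE-/- mice and at 6.61, 8.94, 6.32 and 6.46 CPM in WT mice (log2 fold change 3.36 ± 0.35, edgeR adjusted p = 0.0353). The lowest ApoE-/- aorta was several times the highest WT aorta. The other 8 that DESeq2 called were Spp1 (osteopontin, 4.73), Tnfrsf11b (2.88), Lgals3 (2.51), Lum (2.34), Vcam1 (2.04), Cd44 (1.47), Thbs1 (1.41) and Mmp2 (1.18). Mmp9 was at 0.57 (edgeR adjusted p = 0.734).

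These genes are not made by smooth muscle alone. Macrophage genes summed to 625 to 2533 CPM in ApoE-/- mice and 513 to 622 CPM in WT mice, with 14 of 14 above 0, 2 called by edgeR (Fcgr1 and Trem2) and 9 by DESeq2. Fibroblast genes summed to 5151 to 12225 CPM and 6024 to 7140 CPM, with 0 called by edgeR and 2 higher by DESeq2, Lum and Col1a1. Lymphocyte genes had 1 of 11 called, Ptprc. The cell type that gave each modulated gene its level was not tested.

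Endothelial genes (12 tested) had 11 below 0 and a median of -0.36, with 0 called by edgeR and 5 lower by DESeq2 (Egfl7, Emcn, Kdr, Esam and Cdh5). Skeletal muscle genes had 0 of 10 called by edgeR and 1 lower by DESeq2, Ckm, with sums of 14.8 to 36.7 CPM and 19.7 to 33.3 CPM. Adipocyte lists had 0 calls by edgeR, with medians of -0.45 for white and -0.49 for brown, where DESeq2 called Ppargc1a lower. Without ApoE-/- replicate 1 these medians were -0.54 and -0.75. The sympathetic neuron list had 0 calls by either tool and a median of 1.34, which became -1.85 without ApoE-/- replicate 1.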

How the data were processed

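The authors extracted RNA from whole aortas, made stranded ribodepleted libraries and deposited, for each mouse, a table of read pair counts by gene, not normalized. Per the submitters' processing notes, TopHat2 and HTSeq were used with GRCm38 (mm10). Versions and annotation were not given in the sources used here. The 5 totals in each table that name no gene were left out. Of gene identifiers, 21817 matched GENCODE M21 and 42 did not. No pair of tables was identical. Genotypes came from the labels. Both genotypes carry the numbers 1 to 4, for different mice, and deviations from genotype means correlated at 0.05, -0.45, 0.46 and 0.23 within numbers, so they were not used as pairs.

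Counts were filtered with filterByExpr, scaled by TMM and tested across all genes with the quasi-likelihood test of edgeR 4.0.16 (R 4.3.3, robust), two-sided, with Benjamini-Hochberg adjustment and a threshold of 0.05. DESeq2, the package the study used, here in version 1.42.0, and limma-voom (limma 3.58.1) were alternatives. Log2 values per mouse used a prior count of 2. The muscle scale set the median log2 ratio of the 33 genes to their mean at 0 in each library. Exact permutation tests covered 70 assignments. Depth sets counting error only, and the 4 mice per genotype set the precision. Scripts were tested on simulated counts.

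The members and the lists were chosen with earlier results of these data known. Named were all members, Apoe, Mrtfa, Mrtfb, Klf4, Klf5, Mmp9 and, from each further list, genes past the threshold in edgeR or DESeq2, or otherwise up to 4 with the smallest p. The sympathetic neuron list was added after its values were seen. Python 3.11.15 searched the promoters.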

Additional observations from a re-analysis of the deposited data

Results flagged for a closer look

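In WT mice, Myocd was at 239 CPM in replicate 3 and at 106 to 126 CPM in the other 3, and the gap to the nearest mouse was 0.850 of the whole range, above the Dixon limit for 4 values. Of 68 groups of values examined (the 33 genes and their mean log2 level, in each genotype), 1 passed the limit, where chance gives 3.4.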

How the results depend on the processing

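With 4 mice per genotype and intervals that often reach a 2-fold change, direction was weakly fixed for most members. Of all genes, 70 were called by edgeR, 725 by DESeq2 and 29 by limma-voom, and with the replicate number as a block 2. Leaving out 1 mouse gave 0 to 593 with edgeR, 593 being without ApoE-/- replicate 1, and with DESeq2 1562, 711, 530 and 706 without ApoE-/- replicates 1 to 4 and 472, 503, 453 and 445 without WT replicates 1 to 4. Members called were 0 with edgeR, 1 (Pln) with DESeq2 and 1 (Pln, adjusted p = 0.0486) with upper-quartile factors, 0 to 1 when 1 mouse was left out, and 1 in each DESeq2 fit that left out a mouse. Genes called on the other lists were 4 with edgeR, 34 with DESeq2 and 0 with the block, and 0 to 34 without 1 mouse, 34 being without ApoE-/- replicate 1. Members that did not overlap were 1 to 2, with 2 reached without ApoE-/- replicate 1 and without replicate 3, where 17.3% and 11.4% of all genes did not overlap. The causes were not tested.

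Pln kept its direction in every fit, from -0.99 to -0.80 without 1 mouse. The block left no member called. The median over members was -0.09, and -0.26 by limma-voom and -0.25 with the replicate block, where by limma-voom Acta2 was -0.32, Myh11 -0.30 and Myocd -0.31. Signs turned for members near 0. By DESeq2 Myocd was 0.0010, and with DESeq2 size factors in edgeR 0.0011. By limma-voom Smtn was -0.12, Synpo2 -0.13, Ldb3 -0.18, Actn1 -0.13 and Mustn1 -0.067, and with the replicate block they were -0.11, -0.11, -0.17, -0.12 and -0.064. With upper-quartile factors Ldb3 was -0.011, Mustn1 -0.0004 and Srf -0.0019, with no low-count filter Ldb3 was -0.0002, and with at least 1 CPM in 4 mice Ppp1r12b was 0.0004. The scaling to other smooth muscle genes, an alternative added after the data were seen, also called 0 members. The spreads and the muscle scale without ApoE-/- replicate 1 were added in the same way.

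Leaving out 1 mouse gave log2 fold changes of -0.39 to 0.12 for Acta2, -0.46 to 0.014 for Tagln, -0.32 to 0.21 for Cald1, -0.33 to 0.11 for Cnn1, -0.24 to 0.25 for Lmod1 and -0.25 to 0.28 for Smtn. It gave -0.0003 to 0.39 for Cnn2, -0.36 to 0.18 for Myh11, -0.34 to 0.16 for Mylk, -0.42 to 0.11 for Ppp1r12a and -0.25 to 0.27 for Ppp1r12b. It gave -0.27 to 0.26 for Flna, -0.31 to 0.025 for Csrp1, -0.39 to 0.22 for Nexn, -0.32 to 0.28 for Ldb3, -0.37 to 0.21 for Pdlim3, -0.11 to 0.37 for Pdlim7, -0.19 to 0.36 for Actn1, -0.17 to 0.43 for Synpo2 and -0.079 to 0.40 for Vcl. It gave -0.095 to 0.26 for Mustn1, -0.31 to 0.34 for Myocd, -0.069 to 0.12 for Srf and -0.42 to 0.10 for Rgs5. The sign held but the size moved for Actg2 (-0.50 to -0.085), Tpm1 (-0.41 to -0.025), Tpm2 (-0.47 to -0.050), Myl9 (-0.44 to -0.0074), Myl6 (-0.42 to -0.051), Ppp1r14a (-0.63 to -0.18), Des (-0.53 to -0.23) and Cspg4 (0.079 to 0.58), in each case nearest 0 or, for Cspg4, farthest from it without ApoE-/- replicate 1.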
